A study of Mus musculus with 2 samples.

Results

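The genes described here are the cytosolic ribosomal proteins and the translation initiation and elongation factors, 112 of the 14799 genes named on the arrays. They were chosen by name alone: every non-control spot whose deposited name starts with Rpl or Rps and a digit, or with Eif or Eef and a digit, without 7 names of ribosomal S6 kinases. The 112 names comprise 37 of the large ribosomal subunit, 24 of the small subunit, 33 initiation factors, 8 Eef names, 2 kinases of eIF2, 3 eIF4E-binding proteins and 5 names of the Eif2c series. The 8 Eef names are called elongation factors below, though they include the kinase Eef2k and Eef1e1, a protein bound to aminoacyl-tRNA synthetases. The Eif2c names are older names of Argonaute genes, which act in RNA silencing and not in translation initiation. The 112 names were carried by 139 spots, and 22 names had more than 1 spot. Of the names, 94 are current gene symbols and 18 are older synonyms of 1 current symbol, such as Eif3s6 for Eif3e.

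The study set spontaneously degenerative corneas against the normal corneas of the other eye in BALB/c mice with disease on 1 side. No gene deletion or treatment is named in the labels for either tissue, and neither the age of the mice nor any pooling of RNA is stated there. Total RNA of both tissues was amplified, labelled and hybridised together on 2 two-colour spotted arrays, with the degenerative cornea in Cy5 on array 1 and in Cy3 on array 2. The second array repeats the first with the dyes exchanged, so both together make 1 replicate. No p-value can be given from 1 replicate, and every SD below is the spread of the 2 arrays. All ratios are the authors' normalized log2 ratios of degenerative over normal cornea.

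Ribosomal proteins line the large and small subunits of the ribosome, the particle that reads messenger RNA and joins amino acids. Initiation factors bring the small subunit, the initiator tRNA and the capped messenger together, and elongation factors deliver each further aminoacyl-tRNA and move the ribosome along. Genes of ribosomal proteins are known to be controlled together, and many of their messengers begin with a terminal oligopyrimidine tract, a C followed by a run of C and T, through which the kinase mTOR regulates their translation. In the cornea, protein synthesis serves the constant renewal of the epithelium and the matrix made by stromal keratocytes.

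The start tract was looked for in the promoter table of RefSeq (build GRCm38.p6), which covers 87 of the 112 members. The motif was a C at the annotated start followed by at least 4 bases that are C or T, read on the strand of the gene only, and it stood at the start of 10 of 46 ribosomal protein genes (21.7%), 2 of 28 initiation factor genes (7.14%), none of 6 elongation factor genes and 3.01% of all 27025 genes of the table. A longer run of 8 such bases within 25 bases of the start on either side, a motif chosen after the first count was known, was found for 23 of these 46 ribosomal protein genes, 8 of the 28 initiation factor genes (28.6%), 4 of the 6 elongation factor genes and 22.3% of all genes. A gene with several annotated starts was counted if any of them matched. The windows below show 15 bases before and 15 bases from an annotated start on. Rpl35a has the tract at the start printed and not at its other annotated starts. Capitals mark the C and the run of C and T that follows it. The first 4 are ribosomal protein genes with ratios below 0 on both arrays, Rps15a is the ribosomal protein gene with the largest ratio above 0 on both arrays, Eif3f (Eif3s5 on the arrays) is an initiation factor with the tract, and Eif4g1 and Eif5b, which had the 2 largest ratios among factors above background, have no such start.
Rpl15 (chr14:18270972-18271001, minus strand): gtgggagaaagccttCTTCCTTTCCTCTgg
Rpl35a (chr16:33056467-33056496, plus strand): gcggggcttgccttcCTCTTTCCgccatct
Rps10 (chr17:27635230-27635259, minus strand): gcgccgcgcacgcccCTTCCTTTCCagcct
Rps6 (chr4:86857353-86857382, minus strand): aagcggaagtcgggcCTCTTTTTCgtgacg
Rps15a (chr7:118116133-118116162, minus strand): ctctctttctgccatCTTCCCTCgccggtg
Eif3f (chr7:108934400-108934429, plus strand): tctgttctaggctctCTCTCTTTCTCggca
Eif4g1 (chr16:20672712-20672741, plus strand): cgccagcgcagctccgccctctgcgccggt
Eif5b (chr1:37997995-37998024, plus strand): ggcgcctgggttcccacctggccggcggct

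Ribosomal proteins of both subunits had slightly lower levels in the degenerative cornea than in the normal cornea, while the median of all measured initiation factors lay near 0. The median log2 ratio of the 37 large-subunit names was -0.19 ± 0.03 (SD of the medians of the 2 arrays), which is 12.2% lower, and that of the 24 small-subunit names was -0.25 ± 0.08, or 16.1% lower. The median of the 33 initiation factors was -0.014 ± 0.004, that of the 8 Eef names -0.04 ± 0.04, and that of all 14799 named genes 0.03 ± 0.01. Of the 61 ribosomal protein names, 47 were below 0 on both arrays and 2 above 0 on both, against 26.7% and 31.8% of all named genes. Of the 33 initiation factors, 13 were below and 11 above 0 on both arrays. With 1 comparison of RNA and no animals as replicates, these are differences between the RNA samples on these arrays.

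No member passed the 2-fold size used to call a gene. A call needed each array to show a log2 ratio of 1 or more, or each to show -1 or less, which held for 1.21% of all named genes as higher and 0.878% as lower, and for 0 members in either direction. At a size of 0.5 on each array Eif4g1 was the only member higher, against 4.51% of all named genes, and no member was lower, against 3.37%. Most of the named genes that passed these sizes were not above background in all channels. Of the 5917 that were, 14 were called higher and 28 lower, and 64 and 75 passed 0.5. Of the 95 members above background in all channels, 1 passed 0.5 as higher and 0 as lower. At a size of 0.1, chosen after the data were seen, 31 of 61 ribosomal proteins were lower and 1 was higher, against 17.2% and 21.0% of all named genes, and 4 of 33 initiation factors were lower and 7 higher. The shift of the ribosomal proteins is made of many small ratios. Calls were rare among all genes, so having no called member says little about the ribosomal proteins. In addition, 16 of their 61 names had a saturated spot, where a ratio is compressed and a large one could be missed.

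The ribosomal protein spots were bright, so they were also set beside genes in the same range of brightness. Genes were not matched within that range, where the other genes were mostly dimmer. The band of mean log2 intensity from 12 to 13 held 988 other genes and 5 ribosomal proteins. The band from 14 to 15 held 307 and 10. Between the 25th and 75th percentile of the mean brightness of ribosomal proteins there were 31 ribosomal proteins and 2141 other named genes, a range chosen after the data were seen. The 31 ribosomal proteins had a median of -0.21 ± 0.08, with 29 below 0 on both arrays and none above. The 2141 other genes had a median of -0.0027 ± 0.0044, with 38.7% below 0 on both arrays and 37.9% above. In each of the 6 brightness bands plotted, the median of ribosomal proteins lay below that of the other named genes, with 7, 9, 5, 3, 10 and 27 ribosomal proteins in the bands from dim to bright. The initiation factors varied with brightness. In the 3 brightest bands, with 6, 3 and 3 factors, their medians were -0.08, -0.10 and -0.14, against -0.02, -0.02 and 0.01 for the other named genes. In the 3 dimmer bands their medians were 0.27, -0.01 and 0.01, with 3, 11 and 7 factors.

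**Figure D1:**
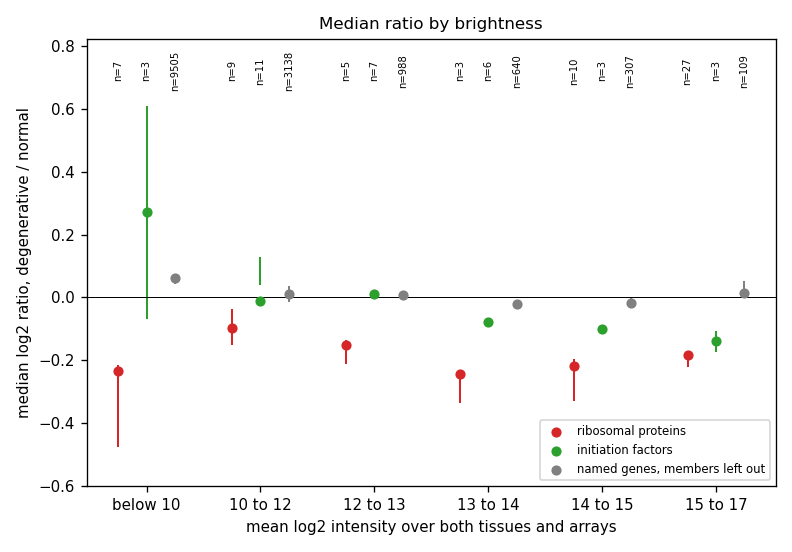
Median log2 ratio (degenerative over normal cornea, vertical axis) of ribosomal proteins, initiation factors and all other named genes in 6 bands of mean log2 intensity (horizontal axis), with the number of genes above each. Points are medians of the mean of both arrays, and lines run between the medians of the single arrays, which need not enclose the point. Ribosomal proteins lie below 0 and below the other named genes in all 6 bands.

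Of the 61 ribosomal protein names, 54 were above background in both tissues on both arrays in all their spots, and these had a median of -0.19 ± 0.05, with 44 below 0 on both (33.2% of all named genes that passed the same filter) and 2 above (36.9%). Among the other 7 were Rpl37, Rpl38, Rpl3l, Rpl41, Rps12 and Rps20. The background limit was set per tissue and array from the 632 Empty spots, at 3 scaled median absolute deviations over their median. Rps20 passed with 1 of its 2 spots, and that spot had a ratio of -0.36. Rpl3l, a paralogue of Rpl3 known from muscle, was the only member past a log2 ratio of 1 in opposite directions (6.44 on array 1 and -1.56 on array 2, against 2.34% of all named genes), and its intensities of 107 and 135 in degenerative and 19 and 81 in normal cornea were not above background.

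In the large subunit, the lowest ratios of members above background belonged to Rpl39, Rpl32 and Rpl6. Rpl39, a small protein near the exit of the tunnel for the growing chain, gave intensities of 18464 and 16414 in degenerative cornea (arrays 1 and 2), against 24543 and 24835 in normal cornea. The degenerative cornea was the dimmer on each array, and the normalized ratios of -0.37 and -0.60 make a mean of -0.49 ± 0.16, or 28.6% lower. Rpl32 gave 35790 and 31650 in degenerative cornea, against 44003 and 51389 in normal cornea, with ratios of -0.34 and -0.61 and a mean of -0.48 ± 0.19. A spot named for its pseudogene, Rpl32-ps, had a mean of -0.39 ± 0.20, with a saturated channel. Ribosomal protein genes have many processed pseudogenes, and spots of such sequences can bind the messenger of the parent gene, so which was measured is uncertain. Rpl6 gave 2076 and 2891 in degenerative cornea, against 2677 and 3736 in normal cornea, with a mean of -0.43 ± 0.23.

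The arrays differed little for some members. Rpl24 had ratios of -0.37 on each array (mean -0.37 ± 0.0015), with intensities of 21625 and 21463 in degenerative cornea, against 27395 and 30061 in normal cornea. Rpl5, which joins the large subunit together with the 5S ribosomal RNA, had -0.24 and -0.32, and Rpl3, which lies near the peptidyl transferase centre, -0.15 and -0.18. Rpl23 had the only ratios above 0 on both arrays in this subunit, 0.03 and 0.01, and Rpl14 had 0.24 on array 1 and -0.15 on array 2. Rpl22, an RNA-binding protein of the large subunit that is not essential for growth of most cells, had -0.11 and -0.05.

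In the small subunit, Rps14 and Rps26 had the lowest ratios of members above background. Rps14 gave 16558 and 17263 in degenerative cornea, against 22089 and 27820 in normal cornea, and its mean ratio was -0.47 ± 0.10, or 28.1% lower. Rps26, which touches the messenger near the exit site and is mutated in human Diamond-Blackfan anaemia, gave 41516 and 37987 in degenerative cornea, against 49827 and 59355 in normal cornea, a mean of -0.43 ± 0.12. The degenerative cornea was the dimmer on both arrays for each of these genes.

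Of all 24 small-subunit names, 18 were below 0 on both arrays and 1 was above. Rps4x, the X-linked form of a protein that also has a Y-linked copy in humans, had -0.15 and -0.41, and Rps16 had a mean of -0.36 ± 0.16. Rps6, the substrate of the S6 kinases downstream of mTOR, had -0.02 and -0.21, with the normal cornea saturated on array 2. Rps15a alone in this subunit was above 0 on both arrays, with intensities of 1248 and 1641 in degenerative cornea, against 1258 and 1239 in normal cornea, and a mean of 0.15 ± 0.05. Rps19, another gene of Diamond-Blackfan anaemia in humans, went opposite ways, with 0.31 on array 1 and -0.34 on array 2.

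**Figure D2:**
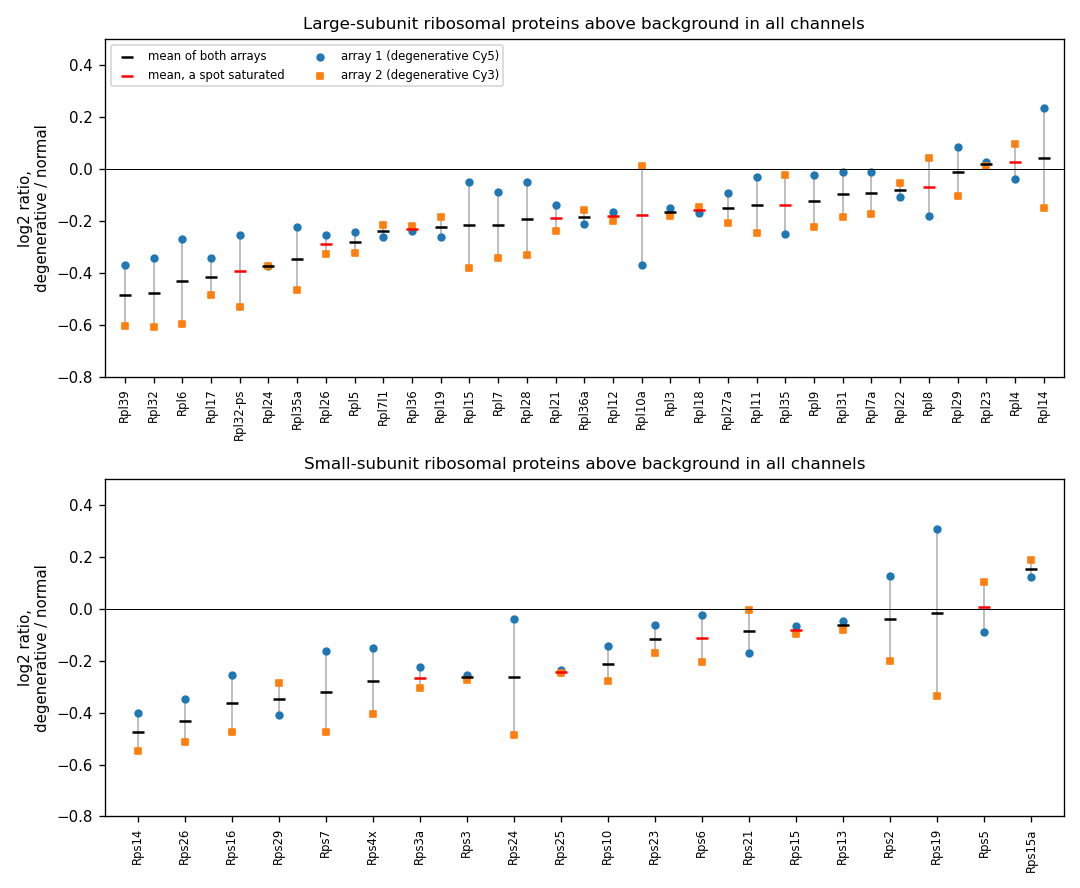
Log2 ratio of degenerative over normal cornea (vertical axis) for each large-subunit and small-subunit ribosomal protein name above background in all channels (horizontal axis), with array 1 as circles, array 2 as squares and their mean as a bar, red where a spot was saturated. Rpl23 and Rps15a are the 2 names with both arrays above 0, and 44 of the 54 names above background have both below 0. The plot leaves out 1 small-subunit name.

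Both dye orientations gave the shift in the authors' normalized ratios. With raw ratios centred on the median, which keep the dye difference, far fewer members had the same sign on both arrays, as given in the last section. On array 1, where the degenerative cornea carried Cy5, 53 of 61 ribosomal proteins had ratios below 0 and their median was -0.17, and on array 2, with the dyes swapped, 53 were below 0 with a median of -0.24. Some ribosomal protein spots were saturated, and the part of saturation in the shift was not tested. Of 77 ribosomal protein spots, 19 had a saturated channel, meaning an intensity within 2% of that channel's maximum. The normal cornea on array 2 was saturated in all 19, the normal cornea on array 1 in 6, and the degenerative cornea in 3 on array 1 and 2 on array 2. A saturated channel understates the signal, so these ratios are compressed. The 51 spots above background with no saturated channel had a median ratio of -0.21, the 17 with 1 to 3 saturated channels -0.16, and the 2 saturated in all 4 channels 0.06.

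**Figure D3:**
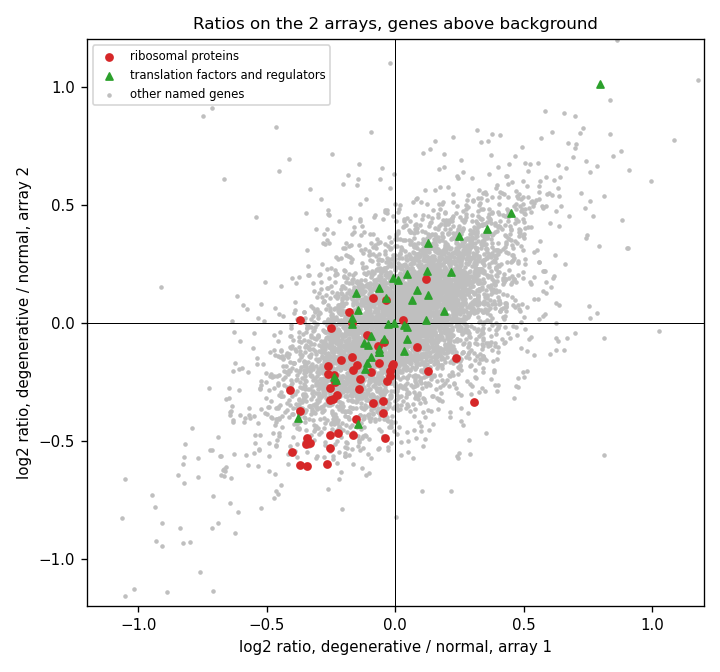
Log2 ratios of degenerative over normal cornea on array 1 (horizontal axis) and array 2 (vertical axis) for named genes above background in all channels, with ribosomal proteins as circles, translation factors and regulators as triangles and other genes as grey points. The axes end at 1.2 in size, so a few other genes lie outside. Most ribosomal proteins lie at the lower left, 44 of 54 with both ratios below 0, and Eif4g1 is the triangle at the upper right.

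Among the initiation factors the largest ratio belonged to the eIF4 group. Eif4g1, the scaffold that holds the cap-binding protein, the helicase eIF4A and eIF3 together, gave 3304 and 3371 in degenerative cornea, against 2206 and 1563 in normal cornea. The degenerative cornea was the brighter on each array, and the ratios of 0.80 and 1.01 make a mean of 0.90 ± 0.15, or 1.87-fold, the largest of the 95 members above background in all channels. It rests on 1 spot. Eif4g2, a related scaffold without the site for the cap-binding protein, gave 15399 and 15681 in degenerative cornea, against 12476 and 12371 in normal cornea, a mean of 0.38 ± 0.03. Eif4g3, the third scaffold, had 1 spot above background, with ratios of 0.42 and -0.10.

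The partners of Eif4g1 in the cap-binding complex did not share its ratio. Eif4e, which binds the cap, had 0.04 on array 1 and -0.07 on array 2. The helicase paralogues Eif4a1 and Eif4a2 had means of -0.09 ± 0.04 and 0.09 ± 0.14, and Eif4b, a helper of the helicase, had -0.016 ± 0.019. Of the 3 proteins that hold Eif4e back, Eif4ebp3 had 0.05 and 0.21, Eif4ebp2 had -0.14 and 0.05, and Eif4ebp1 was not above background in either tissue on either array.

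The 11 measured names of eIF3, the large complex that binds the small subunit, all had the same sign on both arrays, 7 of them below and 4 above 0. Eif3s6 (Eif3e) gave 8408 and 8403 in degenerative cornea, against 10982 and 10363 in normal cornea, and had a mean of -0.39 ± 0.02, or 23.7% lower. Eif3s5 (Eif3f), whose start carries the tract printed above, had -0.24 ± 0.01, and Eif3s2 (Eif3i) -0.16 ± 0.05. The other end was held by Eif3s10 (Eif3a), the largest subunit and the platform of the complex, with 0.23 ± 0.15, by Eif3s9 (Eif3b), a further core subunit, with 0.22 ± 0.0023, and by Eif3s1 (Eif3j1) with 0.11 ± 0.04. Eif3s1 is a mean of 2 spots, with 0.31 and -0.12 on arrays 1 and 2 for one and -0.13 and 0.39 for the other, so neither spot kept its sign when the dyes were swapped. The signs counted here are those of the means over spots.

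The eIF2 group, which brings the initiator tRNA, and its exchange factor eIF2B are described together. The SD of the eIF2 median was larger than the median itself. The 3 names of eIF2 had a median of 0.09 ± 0.12, with 2 above and 0 below 0 on both arrays, and the 5 of eIF2B had -0.07 ± 0.04, with 0 above and 3 below. Eif2s1, the alpha subunit that stress kinases phosphorylate, gave 1117 and 1536 in degenerative cornea, against 1149 and 944 in normal cornea. On array 1 the raw intensities were nearly equal and on array 2 the degenerative cornea was the brighter, and the normalized ratios of 0.25 and 0.37 make a mean of 0.31 ± 0.08. Eif2s3x had 0.01 and 0.18. Its Y-linked paralogue Eif2s3y had 2 spots, of which 1 was above background in all channels, with a ratio of 0.11, and paralogues this close can cross-hybridise. All 5 subunits of eIF2B were measured and their means ran from -0.12 for Eif2b1 to 0.01 for Eif2b5, with Eif2b3 at -0.09 ± 0.04 and Eif2b4 at -0.07 ± 0.03. Of the kinases that phosphorylate eIF2, Eif2ak4 (GCN2), a sensor of amino acid shortage, had -0.04 and 0.11. Eif2ak3 (PERK), a sensor of unfolded protein, had 0.70 and 0.10 and was above background in normal cornea on 1 of 2 arrays.

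In the eIF5 group, Eif5b, the GTPase that joins the subunits at the end of initiation, gave 9229 and 9936 in degenerative cornea, against 6539 and 7173 in normal cornea. The degenerative cornea was the brighter on each array, with a mean of 0.46 ± 0.0078, or 1.37-fold. Eif5, which makes eIF2 hydrolyse its GTP, had 0.12 ± 0.10 over 2 spots with means of 0.24 and -0.0037, and Eif5a, the factor that carries the amino acid hypusine, -0.14 ± 0.04. Eif1ay, an older name of Eif1ax, had -0.17 and 0.02. Among the Argonautes under their Eif2c names, Eif2c2 (Ago2), the slicing Argonaute, had 0.17 ± 0.07 and Eif2c1 (Ago1) -0.0040 ± 0.0037, and the other 3 were not above background in all channels.

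**Figure D4:**
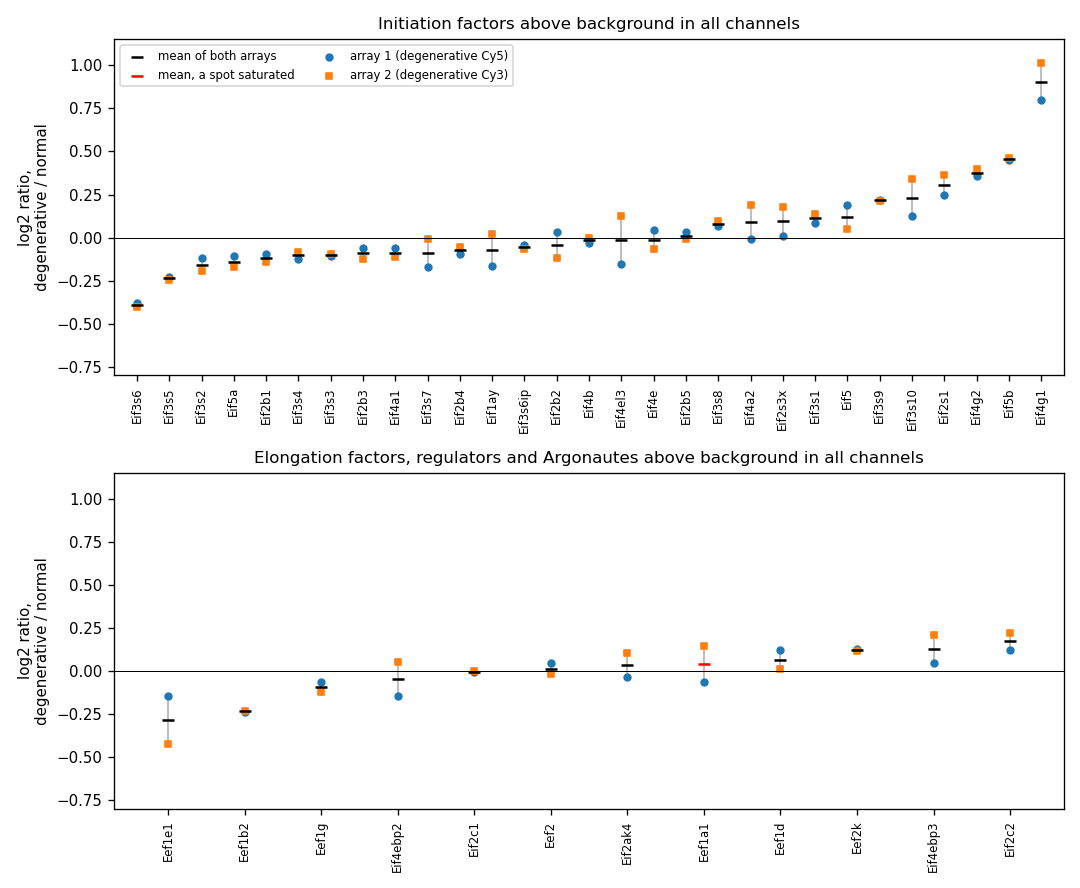
Log2 ratio of degenerative over normal cornea (vertical axis) for initiation factors, and below them for elongation factors, eIF2 kinases, eIF4E-binding proteins and Argonautes, all above background in all channels (names on the horizontal axis), with array 1 as circles, array 2 as squares and the mean as a bar. Eif4g1 stands highest at 0.80 and 1.01, with Eif5b and Eif4g2 next, and Eif3s6 lowest at -0.38 and -0.40.

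The elongation factors showed no common direction. Eef1b2, a nucleotide exchange factor of eEF1A, gave 44566 and 43388 in degenerative cornea, against 49926 and 53637 in normal cornea, and had a mean of -0.23 ± 0.0040. Its partners Eef1g and Eef1d had -0.09 ± 0.04 and 0.07 ± 0.08, with the 2 spots of Eef1d at -0.03 and 0.16. Eef1e1, a small protein bound to the complex of aminoacyl-tRNA synthetases, had -0.14 and -0.43. Eef2, which moves the ribosome by 1 codon, had 0.04 and -0.02, and its inhibitory kinase Eef2k 0.13 and 0.12.

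The paralogues of eEF1A could not be compared. Eef1a1, which delivers aminoacyl-tRNA in most cells, was saturated in all 4 channels, so its ratios of -0.06 and 0.15 are compressed. Eef1a2, the form of neurons and muscle, gave 161 and 73 in degenerative cornea, against 259 and 190 in normal cornea, and was not above background in either tissue. Its ratios of 0.14 on array 1 and -2.33 on array 2 therefore carry no measured difference.

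Within the ribosomal proteins, the start tract did not separate the ratios. The 10 genes with the tract at an annotated start had a median of -0.16 and ran from -0.69, for the dim Rpl38, to 0.15. The 36 without it had a median of -0.18. Of these, 8 and 28 were below 0 on both arrays. With the longer run near the start the medians were -0.18 for the 23 genes that have it and -0.18 for the 23 that do not. Rpl15, Rpl35a, Rps10 and Rps6, printed above, had means of -0.21, -0.35, -0.21 and -0.11, while Rps15a had 0.15 with the same kind of start. The annotated start can lie some bases from the start used in the cornea, so a missing tract says only that these letters are not at that position.

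Other translation genes were set beside the members, and genes counted as measured are those on the arrays, dim or not. The mitochondrial ribosomal proteins, which build the separate ribosome of mitochondria, had a median of -0.19 ± 0.08 over 71 names, with 48 below 0 and 5 above 0 on both arrays. Both kinds of ribosome thus had medians below 0. Their lowest members above background were Mrpl46 (-0.43 ± 0.13) and Mrps11 (-0.43 ± 0.10), and their highest with the same sign on both arrays Mrpl37 (0.13 ± 0.09) and Mrps18b (0.10 ± 0.08). Of 20 aminoacyl-tRNA synthetases, which charge tRNAs with amino acids, 17 were measured and 11 were above background in all channels. The 17 had a median of 0.08 ± 0.03, with 7 above and 3 below 0 on both arrays. Nars had 0.41 ± 0.01 and Cars 0.32 ± 0.09, while Rars had -0.15 ± 0.09 and Kars -0.06 ± 0.04.

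Genes that make or regulate ribosomes lay near 0 as lists. Of 27 ribosome biogenesis genes, 22 were measured and 18 were above background in all channels. The 22 had a median of -0.01 ± 0.06, with 6 above and 6 below 0 on both arrays. Nol5 (Nop58), a core protein of small nucleolar particles, had 0.23 ± 0.06 and Ncl, nucleolin, 0.17 ± 0.05, and at the other end Ebna1bp2, a nucleolar assembly factor, had -0.38 ± 0.10 and Nola2 (Nhp2) -0.29 ± 0.02. A list of mTOR pathway genes and genes named as ribosomal S6 kinases had 12 of 16 genes measured. Of these 12, 7 were above background in all channels. The 12 had a median of 0.11 ± 0.09, with 5 above and 1 below 0 on both arrays. Among the 5 were Rps6ka3 at 0.20 ± 0.09, Rheb, the activator of mTOR, at 0.15 ± 0.13, Gbl (Mlst8) at 0.15 ± 0.04 and Rps6kb1 at 0.06 ± 0.02. Of 9 termination and poly(A)-binding genes, 7 were measured and 6 were above background in all channels. The 7 had a median of 0.06 ± 0.05, with 4 above and 1 below 0 on both arrays. Abce1, which splits ribosomes, had 0.11 ± 0.10 and Pabpc4 0.09 ± 0.11, and Paip2 had -0.14 ± 0.04.

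Targets of the integrated stress response, the programme set off when eIF2 is phosphorylated, went both ways. Of 9 such genes, 7 were measured and 3 were above background in all channels. Over the 7, the median was -0.09 ± 0.06, with 2 above and 3 below 0 on both arrays. Atf3 (0.21 ± 0.20) and Ddit4 (-0.55 ± 0.0079) were not above background in all channels. Asns, asparagine synthetase, had 0.50 ± 0.02, while Atf4, the transcription factor of this response, had -0.21 ± 0.03 and Ddit3 -0.15 ± 0.14. Ribosomal proteins with names outside the naming rule, 7 in all, had 3 below and 2 above 0 on both arrays. Rplp1 of the stalk had -0.38 ± 0.20, Lamr1 (Rpsa) -0.30 ± 0.02 and Rplp0, not above background, -0.23 ± 0.24. Fau (0.07 ± 0.08) and Rplp2 (0.03 ± 0.02) each had a saturated spot.

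**Figure D5:**
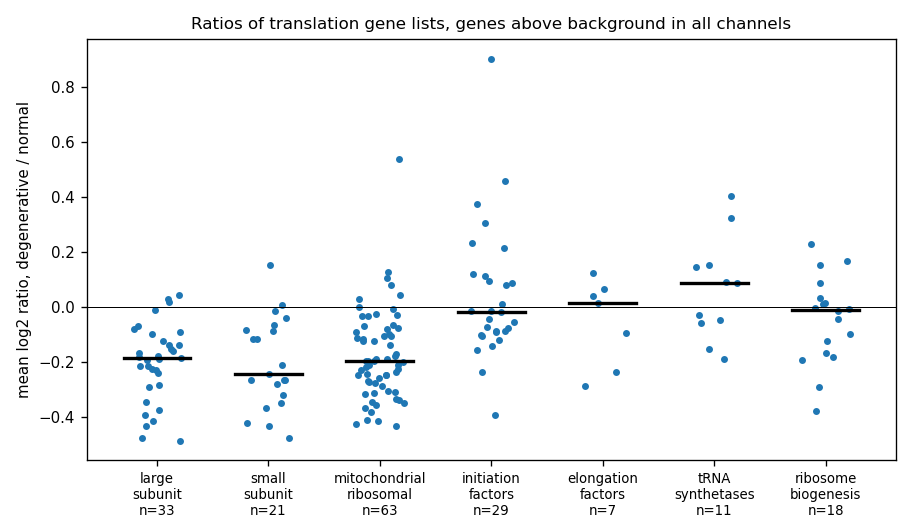
Mean log2 ratio of degenerative over normal cornea (vertical axis) for genes above background in all channels in 7 lists of translation genes (horizontal axis), each point a gene and each bar the list's median. The large-subunit, small-subunit and mitochondrial ribosomal lists have medians of -0.18, -0.24 and -0.20, and the other 4 lists lie between -0.02 and 0.09.

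The makeup of the RNA differed between the tissues beside these small ratios. The corneal epithelial markers were present in both, with 9 of 10 on the arrays and all 9 above background, and summed intensities of 354077 to 400509 in degenerative cornea, against 331993 to 365115 in normal cornea, 5 of them saturated. Of these 9, 6 were above and 0 below 0 on both arrays (median 0.12), with Krt1-14 (Krt14) at 0.61 ± 0.18, Klf4 at 0.29 ± 0.0044 and Trp63 at 0.26 ± 0.02. Of 15 retinal genes measured of 16, 14 were below 0 on both arrays (median -1.46), with summed intensities of 47198 to 48513 in degenerative cornea, against 141071 to 163804 in normal cornea, and Sag was above background in both tissues. Of 15 lens genes measured of 17, 13 were above 0 on both arrays (median 1.56), with sums of 131888 to 136846 in degenerative cornea, against 44411 to 45537 in normal cornea. All 5 measured melanocyte, iris and ciliary body genes were below 0 (median -0.71), with sums of 25668 to 27003 in degenerative cornea, against 44919 to 47309 in normal cornea. Neuronal markers, with 1 of 8 above background in all channels, were below 0 on both arrays in 6 of 8. Of 4 keratocyte markers measured of 8, 3 were below and 1 above 0 on both arrays, of 5 endothelial markers 2 and 2, and of 5 macrophage markers 1 and 2. The part of these tissues in the ratios of the ribosomal proteins was not tested, and fewer cells of a type and less RNA per cell cannot be told apart in RNA of whole tissue.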

How the data were processed

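Each deposited table holds, per the file headers, a Cy5 and a Cy3 intensity and a normalized log2 ratio for 37632 spots, with the same ratio in linear form; negative values occur among the intensities, as after subtraction of a background by the authors. The log2 ratio is degenerative over normal cornea on each array, per the file headers and the dyes in the labels. No source used here names the scanner or the normalization. The log2 ratios of the authors were used as deposited, the intensities only for background, saturation and alternatives, and the linear ratio deposited beside them not at all. Control spots (1780) were left out. Spots were averaged per deposited name without a filter on dim spots, older names were matched through a RefSeq gene table of GRCm38.p6, and a spot within 2% of the maximum of a channel was marked saturated there. On array 1 the background limit was 290 for degenerative and 570 for normal cornea, beside median intensities of 246 and 439. On array 2 the limits were 789 and 373, beside medians of 413 and 226. Precision is limited by having 2 arrays.

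The genes named are the 3 highest and 3 lowest per role or factor complex with the same sign on both arrays and all channels above background, paralogue pairs, members past a log2 ratio of 1 in opposite directions, and the 2 highest and 2 lowest of each further list; other members are named for their role or after their values were seen. Some genes that this rule selects are not reported here. The members, lists and rules were chosen with earlier results of these data known. The alternatives changed the filter, the normalization (loess in limma 3.58.1, R 4.3.3), the averaging, the saturated spots, the print blocks, the names, the array and the size rule. The call rule was tested on simulated data. Tables were read with Python 3.11.15 and pandas 2.3.3.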

Additional observations from a re-analysis of the deposited data

Results flagged for a closer look

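Control spots named M-RPL5, which enter no comparison, gave strong signal. All 48 of them had a saturated channel and 34 were saturated in all 4. The median log2 ratio was -0.0727 on array 1 and 0.1446 on array 2, with 42 of 48 negative on array 1 and positive on array 2. The unsaturated Rpl5 gene spot had -0.24 and -0.32.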

How the results depend on the processing

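The median of the large-subunit ribosomal proteins stayed below 0 in all 14 alternatives, as did that of the small subunit. The large-subunit median was -0.15 with a print-tip loess, and -0.22 and -0.18 with single arrays. The small-subunit median was -0.28 and -0.16 with single arrays. The elongation factors moved with the setting: 0.014 with at least 1 channel or all channels above background, 0.0044 with a print-tip loess and -0.094 without saturated spots, against -0.04. The initiation factors stayed near 0, with -0.019 under a whole-array loess, 0.020 with raw ratios centred on the median, and -0.0053 to -0.011 with single arrays. With those raw ratios, which keep the dye difference, 5 members were above and 4 below 0 on both arrays, against 19 and 64. With single arrays 33 to 34 members were above and 78 to 79 below 0, and 1 to 3 passed the 2-fold size as higher and 1 to 3 as lower. At a size of 0.5, 1 member was higher. Rpl3l was 6.44 on array 1 alone and -1.56 on array 2 alone, and Eef1a2 0.14 and -2.33, and neither is above background. The cause was not tested for these changes. The series matrix holds the same ratios and changed nothing. No paired analysis was possible because the arrays make 1 replicate and there is 1 group of ratios, each of which already sets both tissues against each other within an array.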
